A study of Mus musculus with 27 samples.

Results

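Colon tissue was compared with jejunum tissue in C57BL/6 mice, an inbred laboratory strain, that had been given 15% ethanol for 8 weeks. The members were chosen by their labels alone: the 4 ethanol colon tissue libraries against the 4 ethanol jejunum tissue libraries, 8 of the 27 libraries of the series. All 8 therefore carry the ethanol treatment, and the only labelled difference between the groups is the segment of the gut. Control tissue from mice given water for the same 8 weeks (4 colon and 3 jejunum libraries) was used for 1 further question, whether the difference between the segments depended on ethanol. The title of the series is about colonic permeability and organoid stem cells, so the contrast of segments is the background against which an effect of ethanol on 1 segment is read. The labels give each library a donor number, D1 to D4, that recurs in both segments and in both treatments. They do not say whether 1 mouse gave both segments, which part of the colon or jejunum was taken, how the tissue was cleaned or how old the mice were. Where donors are not stated to be separate mice, the p-values measure the spread between these libraries.

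Libraries were made with QuantSeq, a chemistry that primes at the poly(A) tail and yields a single read close to it per transcript, so that counts do not grow with transcript length. Total counts were 6657233 to 8356918 in ethanol colon and 8643722 to 16312562 in ethanol jejunum. Rn45s, the precursor of ribosomal RNA, took 43, 24.2, 18.4 and 18.3% of the counts of colon libraries 1 to 4, against 80.8, 56.4, 63.8 and 53.4% in jejunum libraries 1 to 4. The groups did not overlap, and the mean was 37.6 percentage points lower in colon (two-sided exact permutation test, p = 0.0286, the smallest that 4 against 4 libraries allow). With Rn45s left out of the totals, 4395678 to 6825729 counts remained in colon and 2099739 to 7606668 in jejunum, and 15759 to 16065 and 13327 to 15501 genes had a count. Values below are counts scaled to the library size outside Rn45s and by edgeR's TMM factors (CPM). They are listed in the order of libraries 1 to 4. The part of the Rn45s share in the results below was not tested. With Rn45s kept in the totals, 5858 genes were called, against 5896 without it. TMM factors rescaled the totals in both fits, so these counts cannot decide that part.

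The small intestine and the colon are lined by 1 continuous epithelium that is renewed from crypt stem cells and does different work along its length. The jejunum digests sugars, peptides and fats at a brush border of microvilli, absorbs the products and packs fat into chylomicrons, and its crypts hold Paneth cells that secrete antimicrobial peptides. The colon recovers salt and water, lives beside a dense microbiota behind a thick mucus layer, and lacks villi and, in mice, Paneth cells. The position along the gut is written into transcription factors such as GATA4 in the jejunum and HOX factors, whose more posterior members mark more posterior gut.

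Of 12679 genes tested, 5896 (46.5%) were called at an adjusted p under 0.05, 3091 of them higher in colon (24.4%) and 2805 lower in colon (22.1%). The counts of called list members below are to be read beside these shares. Among the called genes, 4747 differed at least 2-fold, and for 5171 the ranges of the groups did not overlap. The median log2 fold change over all tested genes was 0.13. TMM scaling centres the fold changes, so this median does not show balance between the segments. The median was 0.21 with upper-quartile factors and -0.03 with a stricter filter on low counts. TMM factors were 1.12 to 1.3 in colon and 0.799 to 0.895 in jejunum. Spearman correlations of log2 CPM across genes were 0.906 to 0.973 between colon libraries, 0.924 to 0.966 between jejunum libraries and 0.683 to 0.803 between the segments; genes are not independent replicates. Libraries of 1 segment also differed among themselves, as described with the position genes below, and the calls were therefore also made without colon libraries 1 and 2 (4944 calls), without colon libraries 3 and 4 (4852) and without jejunum libraries 3 and 4 (4813), alternatives chosen after seeing the data.

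**Figure D1:**
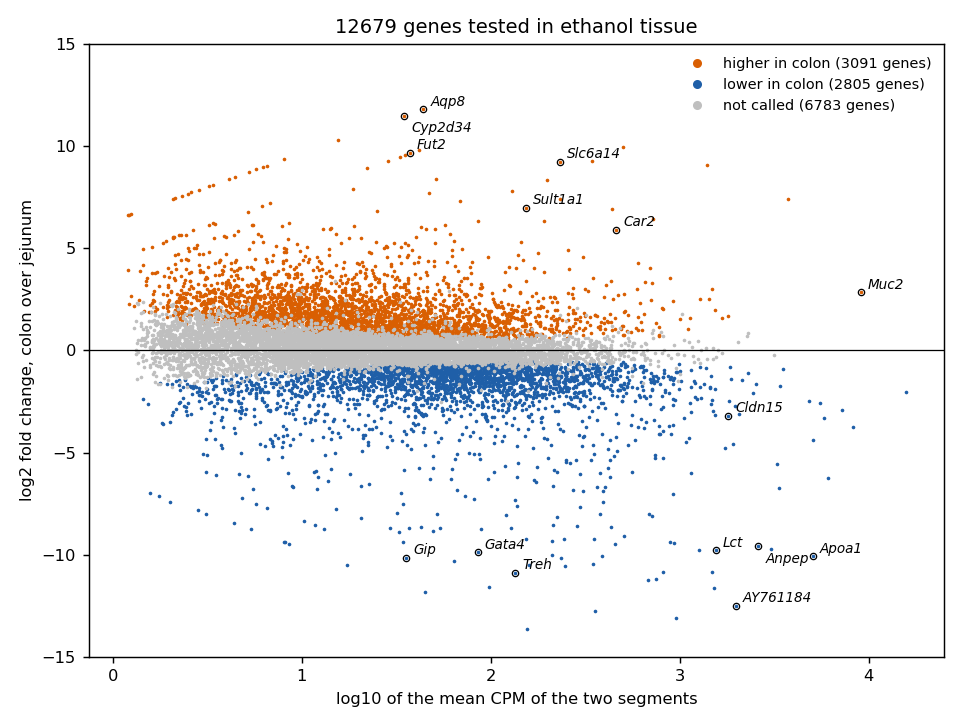
Log2 fold change of colon over jejunum in ethanol tissue (vertical axis) against the log10 mean CPM (horizontal axis) for the 12679 tested genes, coloured by call. Genes lower in colon reach the highest levels, such as Apoa1 at 10076 CPM in jejunum, while Aqp8 and Cyp2d34 at the top had no count in jejunum; the short slanting rows of points are genes with no or few counts in 1 segment.

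The extremes were taken as the 10 genes at either end of the fold changes, counting those called, with no overlap between segments and at 50 CPM or more on average in the higher one. Aqp8, an aquaporin of the surface cells of the colon, had 193, 91.1, 19.6 and 47.1 CPM in colon, against 0, 0, 0 and 0 CPM in jejunum; against a floor of 3 counts over the jejunum libraries it was at least 432-fold higher in colon, or 259-fold without colon library 1. Cyp2d34, a cytochrome P450, had 50.5, 88.4, 81.3 and 57.9 CPM in colon, against 0, 0, 0 and 0 CPM in jejunum, at least 343-fold higher. Fut2, the fucosyltransferase that adds fucose to surface glycans, had 33.3, 80.7, 92.5 and 91.4 CPM in colon, against 0, 0, 0 and 0.165 CPM in jejunum. Its pooled counts differed by a ratio of 1129.8 (95% counting interval 203 to 44648). Slc6a14, a transporter of neutral and basic amino acids, had 320.2, 508, 558 and 462 CPM in colon, against 2.66, 1.6, 0 and 0 CPM in jejunum (log2 fold change 9.22 ± 0.75, adjusted p = 5.61e-06). The other genes at this end were Nxpe2, Hoxa11as, Hoxa10, Sycn, Insl5 and 1810065E05Rik. Of these, Hoxa11as, Hoxa10 and Insl5 were high in colon libraries 1 and 2, and 1810065E05Rik in colon libraries 3 and 4.

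At the lower end, 6 of the 10 genes are alpha-defensins by their RefSeq names or synonyms (among them Gm14851, Gm10104, Gm7849, Defa17 and Defa21), the antimicrobial peptides of Paneth cells. Defa21 had 1.23, 0.478, 0.617 and 0.262 CPM in colon, against 1529, 1348, 1145 and 2000.1 CPM in jejunum (log2 fold change -11.18 ± 0.48, adjusted p = 1.54e-08). These genes are near-identical copies in 1 cluster, and reads may have been split between them, so the level of a single copy is uncertain. The remaining genes were AY761184, Hsd17b6 (a hydroxysteroid dehydrogenase), Unc93a and Treh. AY761184 had no RefSeq match here, so it was not assigned to a family. It lies on chromosome 8 at 21702519 to 21703645, and Defa17 on the same chromosome at 21655780 to 21656735 (GRCm38). Treh, the brush border enzyme that splits trehalose, had 0.526, 0, 0 and 0 CPM in colon, against 273, 353, 251 and 196 CPM in jejunum. The pooled counts differed by a ratio of 2198 (95% counting interval 752 to 10665) in favour of jejunum.

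Promoter windows of 5 genes are shown because these genes stand for the directions of the comparison: Lct and Gip, at or near 0 CPM in colon; Aqp8, with counts in colon alone; and Guca2a and Guca2b, neighbouring relatives that differed in opposite directions. The windows run from 250 bases before to 50 bases after the RefSeq start of the gene (GRCm38.p6, 5′ to 3′ on the gene's strand). Capitals mark 3 kinds of short motif on either strand: the GATA motif AGATAA or TGATAA, the HNF1 motif GTTAAT and the CDX motif TTTATG.
Lct (chr1:128328269-128328568, minus strand): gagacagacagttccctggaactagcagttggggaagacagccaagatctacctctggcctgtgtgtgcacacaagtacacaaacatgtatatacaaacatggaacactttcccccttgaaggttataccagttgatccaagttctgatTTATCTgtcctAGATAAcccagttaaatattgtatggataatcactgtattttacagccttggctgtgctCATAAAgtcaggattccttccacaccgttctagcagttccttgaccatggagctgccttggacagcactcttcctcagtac
Gip (chr11:96024295-96024594, plus strand): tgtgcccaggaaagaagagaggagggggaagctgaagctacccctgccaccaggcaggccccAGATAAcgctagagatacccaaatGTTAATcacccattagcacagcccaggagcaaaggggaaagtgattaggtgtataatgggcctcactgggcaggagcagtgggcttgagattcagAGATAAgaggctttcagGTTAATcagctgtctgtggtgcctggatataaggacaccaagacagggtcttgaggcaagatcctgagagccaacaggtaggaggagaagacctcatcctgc
Aqp8 (chr7:123462044-123462343, plus strand): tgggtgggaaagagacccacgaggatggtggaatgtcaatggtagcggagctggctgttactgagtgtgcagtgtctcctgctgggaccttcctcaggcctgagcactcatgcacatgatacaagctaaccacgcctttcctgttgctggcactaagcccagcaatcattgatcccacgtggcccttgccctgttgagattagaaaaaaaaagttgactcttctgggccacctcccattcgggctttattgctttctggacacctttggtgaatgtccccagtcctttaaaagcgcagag
Guca2a (chr4:119637482-119637781, plus strand): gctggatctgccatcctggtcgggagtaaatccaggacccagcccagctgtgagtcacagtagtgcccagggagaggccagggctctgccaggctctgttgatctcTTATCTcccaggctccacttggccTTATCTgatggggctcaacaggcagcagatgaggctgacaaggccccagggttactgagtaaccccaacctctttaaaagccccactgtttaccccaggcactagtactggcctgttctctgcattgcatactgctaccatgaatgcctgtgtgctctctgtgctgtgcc
Guca2b (chr4:119658896-119659195, minus strand): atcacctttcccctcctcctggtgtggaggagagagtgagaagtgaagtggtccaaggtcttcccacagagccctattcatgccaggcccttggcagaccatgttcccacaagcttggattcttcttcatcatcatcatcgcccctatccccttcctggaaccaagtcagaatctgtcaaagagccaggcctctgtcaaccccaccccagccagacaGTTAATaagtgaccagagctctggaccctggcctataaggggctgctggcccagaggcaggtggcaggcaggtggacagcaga
The window of Lct held AGATAA at 2 places and TTTATG at 1, and that of Gip held AGATAA and GTTAAT at 2 places each. The window of Guca2a held AGATAA at 2 places, that of Guca2b held GTTAAT at 1, and that of Aqp8 held none of the 4 motifs. Of 32851 RefSeq windows of this length, 11.2% held AGATAA, 9.05% TGATAA, 7.1% GTTAAT and 11.9% TTTATG. A match describes these letters only.

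Digestive enzymes of the brush border were lower in colon without exception among the tested members. All 18 tested genes of the list were called lower and none higher, with a median log2 fold change of -6.07 (all genes 0.13). Of the 20 members, 2 were not tested. Members with almost no count in colon, such as Treh with 3 counts there, could pass the filter on low counts only through jejunum. Their calls say little beyond the levels, and the same holds for such members of the lists below. In such bulk tissue, fewer cells of a type and less RNA per cell cannot be told apart. Lct, lactase, which splits milk sugar (chromosome 1, 128284756 to 128328318, GRCm38), had 7.01, 3.34, 2.31 and 1.44 CPM in colon, against 4695, 3382, 2533 and 1792 CPM in jejunum (log2 fold change -9.79 ± 0.62, adjusted p = 2.88e-07). Anpep, an aminopeptidase, had 6.49, 5.73, 9.1 and 5.5 CPM in colon, against 4708, 3773, 4743 and 7591 CPM in jejunum (log2 fold change -9.60 ± 0.43, adjusted p = 1.98e-08). For both genes every jejunum library stood far above every colon library. Sis, sucrase-isomaltase, averaged 4.59 ± 3.62 CPM in colon and 541 ± 161 CPM in jejunum (SD, n = 4 each). Mgam, maltase-glucoamylase, differed by less, with 104, 138, 103 and 104 CPM in colon, against 1127, 2029, 1237 and 1362 CPM in jejunum (log2 fold change -3.68 ± 0.29, adjusted p = 1.5e-06). Alpi, intestinal alkaline phosphatase, fell to 9.82, 0.956, 18.4 and 16.6 CPM in colon, against 354, 1077, 1163 and 795 CPM in jejunum. All of these enzymes were apart between the segments. The summed list stood at 282, 251, 345 and 323 CPM in colon, against 15900.1, 17042, 17547 and 19486 CPM in jejunum.

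**Figure D2:**
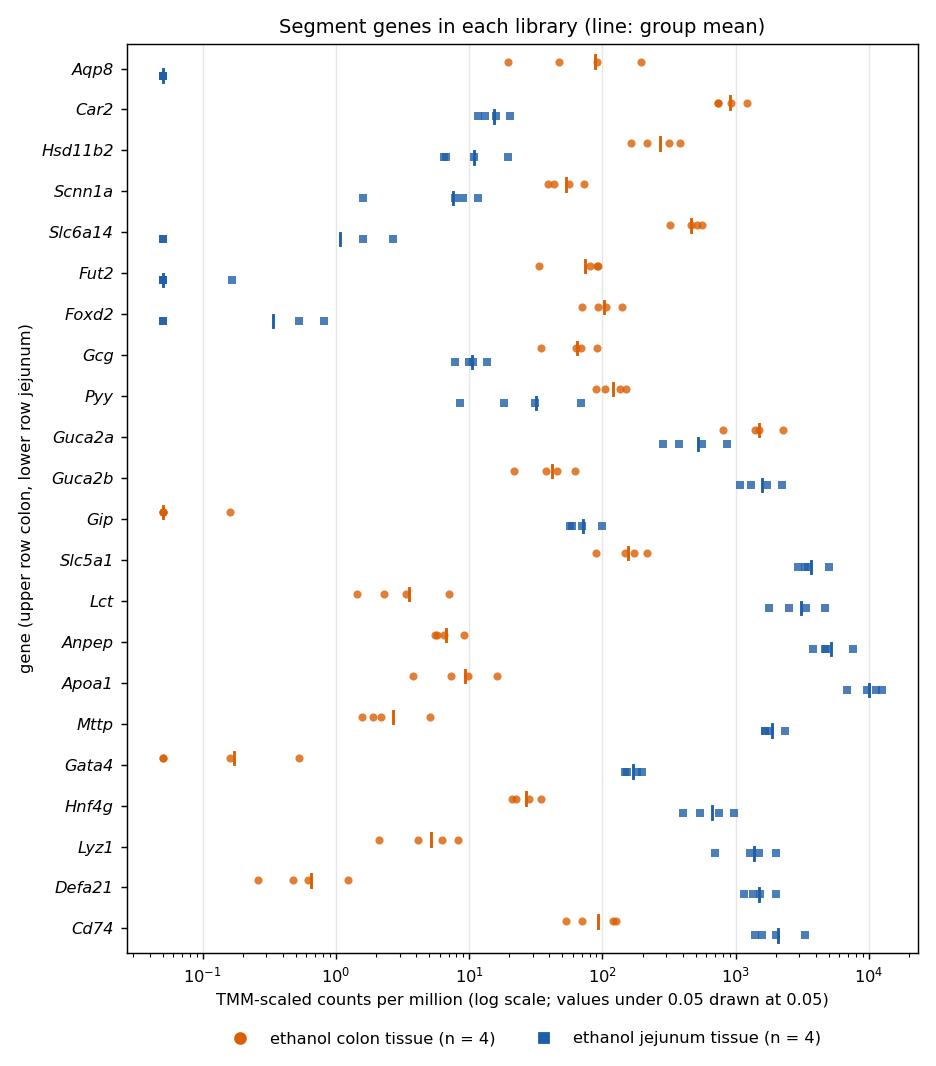
TMM-scaled CPM (log axis) of 22 genes in each ethanol tissue library, colon in the upper row of each gene and jejunum in the lower row; points are libraries and the short lines are group means, n = 4 each. The groups lie apart for every gene drawn except Guca2a, for which they overlap at their edges, with colon at 805 to 2280.2 CPM and jejunum at 286 to 866 CPM.

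Transporters of sugars, peptides and minerals followed with 17 of 22 tested members lower in colon and 2 higher (median -4.02). Slc5a1, the sodium-glucose cotransporter, had 89.4, 173, 216 and 148 CPM in colon, against 3476, 5024, 2938 and 3298 CPM in jejunum (log2 fold change -4.56 ± 0.36, adjusted p = 1.74e-06). Slc2a5, the fructose transporter, averaged 2.71 ± 0.991 CPM in colon and 56.9 ± 18.9 CPM in jejunum. Slc15a1, which takes up small peptides, had 23.5, 28.2, 3.24 and 1.7 CPM in colon, against 2177, 1433, 1613 and 2129.7 CPM in jejunum; colon libraries 1 and 2 were above colon libraries 3 and 4 but far under jejunum. Slc2a2, the glucose exporter of the basal membrane, had 2.1, 0.319, 0.154 and 0 CPM in colon, against 259.6, 483, 150 and 123 CPM in jejunum. The 2 members higher in colon move minerals. Slc40a1, ferroportin, the iron exporter, had 33.5, 75.3, 137 and 254 CPM in colon, against 0.532, 2.88, 2.97 and 4.61 CPM in jejunum (log2 fold change 5.35 ± 0.70, adjusted p = 0.000202). S100g, the calcium carrier calbindin, had 0.526, 1.11, 348 and 129 CPM in colon, against 1.06, 0.959, 3.24 and 2.96 CPM in jejunum, so that only colon libraries 3 and 4 stood above jejunum. Its log2 fold change was 5.72 ± 1.86 (adjusted p = 0.0337). The call was lost without colon library 3 (4.29, adjusted p = 0.0866) or 4 (5.63, 0.0783), or without jejunum library 1 (5.58, 0.0814), 2 (5.5, 0.0736), 3 (5.96, 0.0742) or 4 (5.97, 0.063), so that 1 member was then higher, and without both colon libraries 3 and 4 the fold change was -1.41 (adjusted p = 0.263).

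Genes of fat absorption and chylomicron assembly gave 21 of 26 tested members lower in colon and 1 higher (median -4.54); 2 were higher without colon library 2. Their summed level was 1044, 606, 1389.9 and 1374 CPM in colon, against 27440.4, 44979, 53755 and 39129 CPM in jejunum. Apoa1, a protein of chylomicrons and high-density lipoprotein, had 16.1, 7.33, 9.72 and 3.8 CPM in colon, against 6849, 11233, 12629.7 and 9593 CPM in jejunum (log2 fold change -10.09 ± 0.58, adjusted p = 1.23e-07). Mttp, which loads lipid onto the growing particle, had 5.08, 1.91, 2.16 and 1.57 CPM in colon, against 1656, 2353, 1646 and 1796 CPM in jejunum (log2 fold change -9.45 ± 0.47, adjusted p = 4.22e-08). Both were low in every colon library and high in every jejunum library. Apob, the structural protein of the particle, differed by less, with means of 44.2 ± 15.4 CPM in colon and 591 ± 171 CPM in jejunum (SD, n = 4 each; log2 fold change -3.74 ± 0.32). Fabp1 and Fabp2 carry fatty acids inside the enterocyte: Fabp2 had 598, 149.7, 531 and 564 CPM in colon, against 1799, 6105, 19404 and 11580 CPM in jejunum (log2 fold change -4.40 ± 0.72, adjusted p = 0.000602). Fabp1 fell to 7.54, 1.59, 1.54 and 1.05 CPM in colon, against 269.7, 1547, 706 and 502 CPM in jejunum. The member called higher was Scarb1, a receptor for high-density lipoprotein, with 11.2, 16.9, 16.7 and 18.5 CPM in colon, against 0, 0.959, 2.16 and 1.48 CPM in jejunum (log2 fold change 3.60 ± 0.52, adjusted p = 0.000175).

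Bile acid genes separated the libraries within each segment. Of 8 tested members, 4 were lower and 2 higher in colon; 2 were called lower without colon library 4 and 1 without jejunum libraries 3 and 4. Leaving out colon library 3 or 4 or jejunum library 1, 2 or 3 left 1 higher. Fabp6, the bile acid carrier known as a marker of the ileum, had 2.81, 7.01, 10.3 and 10.1 CPM in colon, against 3.72, 0.959, 1292 and 1877 CPM in jejunum: 2 jejunum libraries were at colon levels and the other two far above. Its call (log2 fold change -6.70 ± 2.03, adjusted p = 0.025) was lost without colon library 1 (-6.44, adjusted p = 0.0929), 2 (-6.67, 0.07), 3 (-6.89, 0.0639) or 4 (-6.90, 0.077), and without jejunum libraries 3 and 4 together the fold change was 1.79 (adjusted p = 0.102). In control jejunum the same gene had 499.9, 1.53 and 2673 CPM in the fit of all tissue libraries. Fgf15, the ileal hormone that signals bile acid uptake to the liver, was not tested and had 0, 0, 0.154 and 0 CPM in colon, against 0.532, 0.959, 4.05 and 31.4 CPM in jejunum. Slc10a2, the bile acid uptake transporter, had 0.175, 0.796, 76.5 and 32.7 CPM in colon, against 0, 0, 4.87 and 4.12 CPM in jejunum and was not called (log2 fold change 3.42 ± 1.51, adjusted p = 0.0909) but was without colon library 2 (3.82, 0.0369) or without colon libraries 1 and 2 (4.33, 0.000412); it was highest in colon libraries 3 and 4. Without jejunum libraries 3 and 4 together, 18 brush border genes and 21 fat absorption genes were still called lower.

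Salt and water handling pointed the other way. On the list of colonic ion and water transport, 12 of 23 tested members were higher in colon and 1 was lower (median 1.45). Car2, a carbonic anhydrase that supplies protons and bicarbonate, had 737, 1211, 923 and 736 CPM in colon, against 20.2, 16, 11.6 and 13.2 CPM in jejunum (log2 fold change 5.90 ± 0.32, adjusted p = 7.96e-08). Hsd11b2, which protects the mineralocorticoid receptor from glucocorticoids, had 164, 382, 215 and 314 CPM in colon, against 19.7, 6.71, 6.49 and 10.9 CPM in jejunum (log2 fold change 4.66 ± 0.41, adjusted p = 4.91e-06). Scnn1a, a subunit of the epithelial sodium channel, averaged 53 ± 15.1 CPM in colon and 7.52 ± 4.27 CPM in jejunum, and Slc12a2, the chloride loader of secretory cells, 606 ± 42.9 CPM in colon and 222 ± 62.4 CPM in jejunum (SD, n = 4 each). None of these 4 genes overlapped between segments. Car1, a carbonic anhydrase of the colonic surface, had 1442, 391, 13649 and 14229 CPM in colon, against 130.3, 42.5, 4.6 and 0.988 CPM in jejunum (log2 fold change 7.41 ± 1.74, adjusted p = 0.0066). It was not called without colon libraries 3 and 4 (4.28, adjusted p = 0.0889). Slc26a3, the chloride-bicarbonate exchanger, had 657, 539, 162 and 182 CPM in colon, against 328, 266, 317 and 412 CPM in jejunum and was not called (log2 fold change 0.22 ± 0.42, adjusted p = 0.69), with colon libraries 1 and 2 above jejunum and the other two below it. Its fold change was -1.01 (adjusted p = 0.012) without colon libraries 1 and 2, and 0.78 (adjusted p = 0.0396) without colon libraries 3 and 4. The member lower in colon was Slc4a4, a bicarbonate cotransporter of the basal membrane, at 128 ± 32.9 CPM in colon and 307 ± 37.5 CPM in jejunum.

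**Figure D3:**
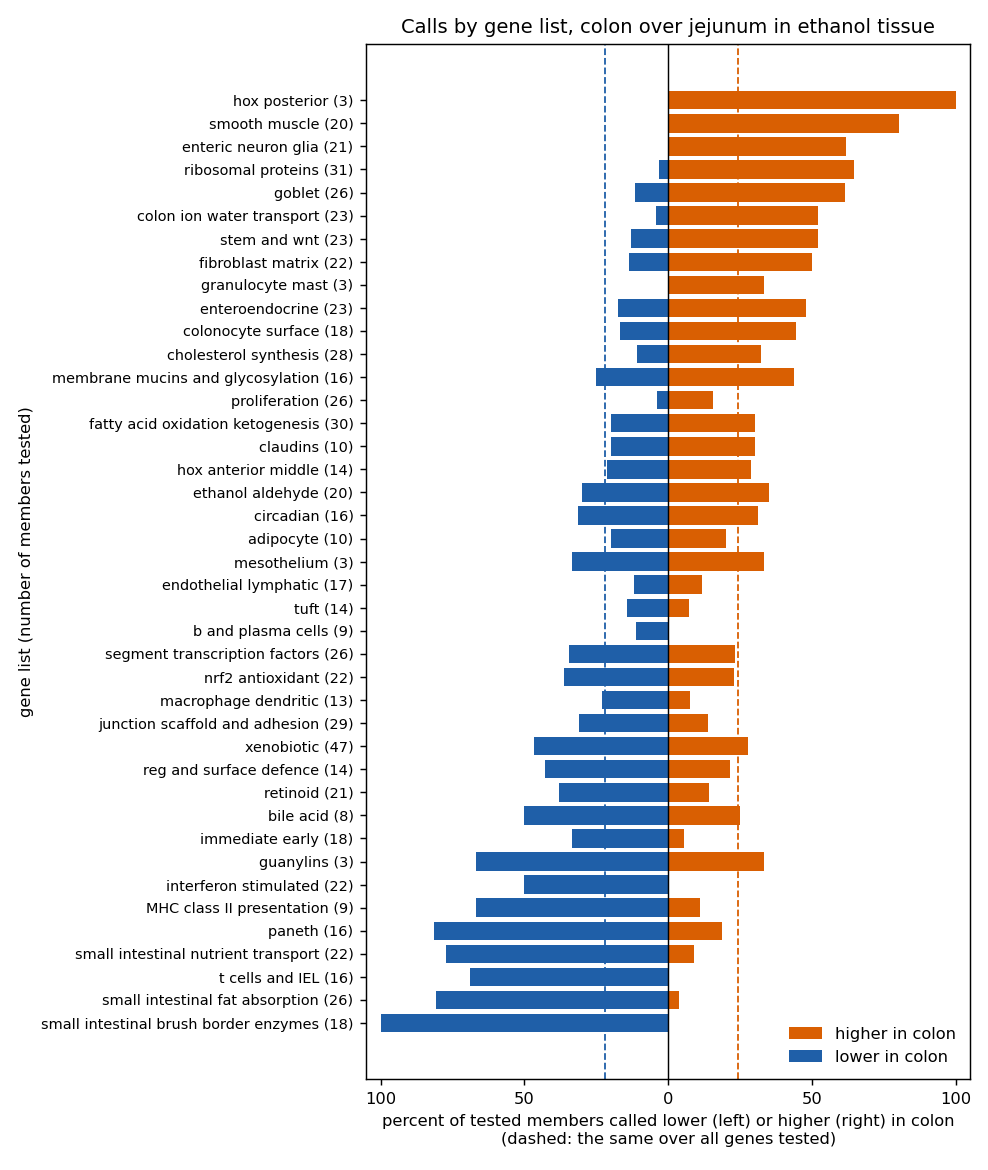
Percent of the tested members of each gene list that were called lower in colon (bars to the left) or higher in colon (bars to the right), with the number tested in brackets; lists with fewer than 3 tested members are left out. The dashed lines give the same over all genes tested, 22.1% lower and 24.4% higher; brush border enzymes, at the bottom, have 18 of 18 lower, and smooth muscle, near the top, has 16 of 20 higher.

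The mucus system held 16 of 26 tested goblet cell genes higher in colon and 3 lower (median 1.65), or 5 lower without colon library 1 or without colon library 4. Muc2, the gel-forming mucin of the intestine, had 3695, 2084, 14671 and 43249 CPM in colon, against 1307, 1945, 2724 and 2920.3 CPM in jejunum (log2 fold change 2.84 ± 0.85, adjusted p = 0.0196), with colon library 4 far above the rest. The call was lost without colon library 4 (1.56, adjusted p = 0.0502) or jejunum library 1 (2.65, 0.0616), and without colon libraries 3 and 4 together the fold change was 0.31 (adjusted p = 0.531). Agr2, a disulfide isomerase needed to fold mucin, averaged 1002 ± 319.5 CPM in colon and 286 ± 233 CPM in jejunum (log2 fold change 1.80 ± 0.46, adjusted p = 0.00761). Retnlb, a goblet cell antibacterial protein, had 40, 2.87, 2.01 and 7.2 CPM in colon and no count in jejunum, at least 64.1-fold higher. Colon library 1 carried most of this level, and without it the bound was 19.8-fold. The gene was not called without jejunum libraries 3 and 4 (adjusted p = 0.0587). Zg16, a lectin that binds bacteria in mucus, was lower in colon in all 4 libraries: 154, 483, 2664 and 3023 CPM in colon, against 7344, 11101, 9711 and 9724 CPM in jejunum (log2 fold change -2.58 ± 0.78, adjusted p = 0.02). Without jejunum libraries 3 and 4 its adjusted p was 0.0665 (log2 fold change -2.54). The pentraxins divided: Mptx2 had no count in colon, against 12.8, 25.2, 12.7 and 13.3 CPM in jejunum (at least 139-fold lower), while Mptx1 had 311, 3706, 0.925 and 3.67 CPM in colon, against 1.06, 2.24, 0.541 and 0.494 CPM in jejunum and was called higher (log2 fold change 9.95 ± 2.74, adjusted p = 0.0171) with high values in colon libraries 1 and 2 alone. Without those libraries its fold change was 1.09 (adjusted p = 0.363).

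Of 16 tested genes of the membrane mucins and their sugars, 7 were higher and 4 lower. Over all genes 24.4% were higher and 22.1% lower, so the count of 4 is near its share. Muc13, a mucin of the apical membrane, had 631, 1332, 2157 and 1789 CPM in colon, against 7234, 8349, 10306 and 6967 CPM in jejunum (log2 fold change -2.48 ± 0.38, adjusted p = 0.000279). St3gal4, which adds sialic acid, averaged 41.5 ± 15.8 CPM in colon and 1437 ± 371 CPM in jejunum, opposite to Fut2, whose values are given above. Gcnt3, which branches mucin sugars, was higher, at 93.5, 31.7, 531 and 769 CPM in colon and 18.1, 28.8, 20 and 33.3 CPM in jejunum, where the ranges touched through colon library 2; without jejunum libraries 3 and 4 it was not called (3.92, adjusted p = 0.0596).

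Paneth cell genes had the lowest median of all the lists, with 13 of 16 tested members lower in colon and 3 higher. The median log2 fold change was -8.45, or -7.64 with genes that had no count in 1 segment set at their bound. Members such as Defa17, with 14 counts in colon, could pass the filter only through jejunum, so their calls say little beyond the levels. The summed list had 81.5, 120.1, 145 and 435 CPM in colon, against 11682, 11125, 6849.5 and 12405 CPM in jejunum. Lyz1, the lysozyme of Paneth cells, had 2.1, 8.28, 4.16 and 6.28 CPM in colon, against 1497, 1278, 697 and 2022 CPM in jejunum (log2 fold change -8.03 ± 0.53, adjusted p = 4.23e-07). The 3 members called higher in colon were Lyz2, the lysozyme of macrophages, Nupr1, a stress-response gene, and Copz2, a coat protein of vesicles. Lyz2 had 11.7, 12.6, 6.17 and 19.4 CPM in colon, against 0.532, 2.56, 1.89 and 3.62 CPM in jejunum (log2 fold change 2.41 ± 0.51, adjusted p = 0.00229).

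Surface defence genes linked to interleukin-22 showed 6 of 14 tested members lower and 3 higher. The count of 3 is near the share higher over all genes (24.4%). Reg3b, an antibacterial lectin, had 12.4, 2.71, 269 and 339.8 CPM in colon, against 4722, 10841, 13329.5 and 19005 CPM in jejunum (log2 fold change -6.26 ± 1.40, adjusted p = 0.00503). Reg3g, its close relative, had 4.03, 3.03, 46.4 and 85.9 CPM in colon and 567, 2373, 2455 and 3618 CPM in jejunum. Colon libraries 3 and 4 lay above colon libraries 1 and 2 for both, and all colon libraries lay below jejunum. The members higher in colon were Dmbt1, a scavenger receptor that binds bacteria, Saa1, an acute-phase protein, and Wfdc2, a secreted protease inhibitor. Dmbt1 averaged 2632 ± 1568 CPM in colon and 328 ± 101 CPM in jejunum, and Wfdc2 had 405, 1161, 166 and 118 CPM in colon, against 4.26, 4.15, 0.811 and 2.3 CPM in jejunum (log2 fold change 7.41 ± 0.93, adjusted p = 0.000198).

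Hormone genes of enteroendocrine cells were more often called higher than lower in colon. Of 23 tested members, 11 were higher and 4 lower, against 24.4% higher and 22.1% lower over all genes. The count of 4 is below that share. Without colon libraries 3 and 4, 7 were called higher. Gip, the incretin of the upper small intestine, had 1 count in all colon libraries together, against 70.2, 99.7, 57 and 58.6 CPM in jejunum, a ratio of 1785 (95% counting interval 319.7 to 70580.2) in favour of jejunum. Cck, the hormone that empties the gall bladder, averaged 7.16 ± 4.31 CPM in colon and 37.3 ± 7.13 CPM in jejunum (log2 fold change -2.36 ± 0.39, adjusted p = 0.000469). Gcg, which encodes glucagon-like peptides, had 69.1, 34.7, 63.1 and 91.4 CPM in colon, against 10.6, 9.9, 7.84 and 13.7 CPM in jejunum (log2 fold change 2.61 ± 0.32, adjusted p = 5.73e-05). Pyy, the appetite-lowering peptide of the same L cells, had 89.6, 151, 105 and 135 CPM in colon and 8.51, 18.2, 31.1 and 68.6 CPM in jejunum (log2 fold change 1.89 ± 0.50, adjusted p = 0.00959). For both hormones every colon library exceeded every jejunum library. Insl5, an L cell hormone of the distal gut, had 103, 116, 4.94 and 5.24 CPM in colon, against 0.532, 0, 0 and 0 CPM in jejunum; colon libraries 1 and 2 held most of it. Nts, neurotensin, was not called (log2 fold change -1.98 ± 1.32, adjusted p = 0.25) and had 2.98, 0, 112 and 138 CPM in colon, against 123, 226, 275 and 375 CPM in jejunum. It was called lower without colon libraries 1 and 2 (-1.05, adjusted p = 0.0347), without colon libraries 3 and 4 (-7.46, 7.06e-05) and with limma-voom (-4.69, 0.027). Chga, a granule protein of most endocrine cells, was also not called (log2 fold change 0.51 ± 0.66, adjusted p = 0.561). Its fold change was 1.25 (adjusted p = 0.00433) without colon libraries 1 and 2 and -1.58 (adjusted p = 0.00659) without colon libraries 3 and 4.

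The guanylins, peptides that open epithelial chloride secretion through the receptor Gucy2c, differed in opposite directions. Their genes lie side by side on chromosome 4 (Guca2a at 119637704 to 119639471 and Guca2b at 119656607 to 119658954, GRCm38), and their promoter windows are printed above. Guca2a, guanylin, had 1488, 805, 1387 and 2280.2 CPM in colon, against 286, 373, 554 and 866 CPM in jejunum (log2 fold change 1.52 ± 0.39, adjusted p = 0.00735). It was not called without colon libraries 3 and 4 (1.08, adjusted p = 0.0505). Guca2b, uroguanylin, had 21.6, 37.4, 61.9 and 45.4 CPM in colon, against 1072, 2237, 1728 and 1308 CPM in jejunum (log2 fold change -5.25 ± 0.40, adjusted p = 1.38e-06). With their receptor, the summed list had 1700, 1104, 1902 and 2676 CPM in colon, against 1949.5, 3163, 2799.8 and 2685 CPM in jejunum. Gucy2c had 191, 262, 453 and 351 CPM in colon, against 592, 554, 518 and 511 CPM in jejunum (log2 fold change -0.79 ± 0.27, adjusted p = 0.0304); its call was lost without colon library 1 (-0.61, adjusted p = 0.0741) or 2 (-0.71, 0.0776) and without jejunum library 1 (-0.75, 0.0559), 2 (-0.78, 0.057), 3 (-0.81, 0.0537) or 4 (-0.82, 0.0512), which leaves 1 member of the list lower.

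Transcription factors that set the segment had 9 of 26 tested members lower in colon and 6 higher. Over all genes 22.1% were lower and 24.4% higher. Gata4 (chromosome 14, 63198922 to 63271692, GRCm38), which maintains jejunal identity, had 0.526, 0.159, 0 and 0 CPM in colon, against 197, 182, 148 and 153 CPM in jejunum (log2 fold change -9.89 ± 0.51, adjusted p = 5.82e-08). Gata5 had 2.28, 0.319, 0.771 and 0.785 CPM in colon and 162, 118, 180.3 and 187 CPM in jejunum. Gata6, the relative active in both segments, differed less: 74.8 ± 13.4 CPM in colon and 148 ± 18.1 CPM in jejunum (SD, n = 4 each; log2 fold change -0.99 ± 0.21, adjusted p = 0.00238). Hnf4g, a factor of absorptive enterocytes, had 34.5, 28.2, 22.4 and 20.9 CPM in colon, against 755, 401, 539 and 972 CPM in jejunum (log2 fold change -4.65 ± 0.34, adjusted p = 9.98e-07). None of these 4 factors overlapped between the segments. In the other direction, Foxd2, a forkhead factor, had 70.5, 106, 139 and 92.7 CPM in colon, against 0.532, 0, 0.811 and 0 CPM in jejunum (log2 fold change 8.40 ± 0.58, adjusted p = 5.77e-07). It was at or near 0 in jejunum. Cdx1, a caudal-type factor of the intestine, was higher in colon at 343 ± 118 CPM in colon and 115 ± 14.2 CPM in jejunum, while Cdx2, which holds intestinal identity as a whole, had 105 ± 41.8 CPM in colon and 68.5 ± 17.4 CPM in jejunum and was not called (log2 fold change 0.62 ± 0.30, adjusted p = 0.115), but was without colon libraries 1 and 2 (0.98, adjusted p = 0.0134).

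Posterior HOX genes were nearly absent from jejunum: the 13 members of the list summed to 359, 825, 129.7 and 129 CPM in colon, against 1.06, 2.24, 4.05 and 1.48 CPM in jejunum. Only 3 passed the filter on low counts, and all 3 were called higher, which says little beyond the levels, since such genes had to be high in colon to pass; 5 passed and were higher without colon library 1 or without any 1 jejunum library. Hoxb9 was even across colon: 30, 29.3, 48.7 and 53.5 CPM in colon, against 0, 1.6, 0.541 and 0.988 CPM in jejunum (log2 fold change 5.51 ± 0.49, adjusted p = 4.58e-06). Hoxa10 had 132, 99.4, 18.5 and 12.8 CPM in colon, against 0, 0, 0.27 and 0 CPM in jejunum and Hoxa11 had 17.7, 5.89, 3.86 and 5.5 CPM in colon, with no count in jejunum. The most posterior genes split the colon libraries. Hoxb13 (chromosome 11, 96194316 to 96197447, GRCm38), a gene of the hindgut end, had 140.3, 644, 0.154 and 0.131 CPM in colon, against 0, 0, 1.62 and 0 CPM in jejunum. Hoxd13 had 3.86, 9.87, 0.308 and 0 CPM in colon. Hoxd10 ran the other way within colon, at 0.701, 9.56, 30.2 and 28.3 CPM. Of the HOX genes of the anterior and middle groups, 4 of 14 tested members were higher and 3 lower in colon. Both counts are near the shares over all genes (24.4% higher and 22.1% lower). Without colon library 1, 7 were higher. Hoxc8 was lower in every colon library, at 0, 0.319, 3.7 and 1.18 CPM, against 23.4, 13.1, 92.4 and 31.4 CPM in jejunum.

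Colon libraries 1 and 2 stood apart from libraries 3 and 4 in position genes. Aqp4, a water channel, also had 542, 777, 21.3 and 24.3 CPM in colon, against 24.5, 7.67, 6.76 and 13.3 CPM in jejunum, and without colon libraries 1 and 2 its fold change was 0.76 (adjusted p = 0.229); without jejunum libraries 3 and 4 it was 4.44 (adjusted p = 0.0945). Osr2, a zinc-finger factor chosen for mention after its values were seen, had 1.75, 0.478, 344 and 316 CPM in colon, against 14.9, 116, 153 and 73.1 CPM in jejunum. It was not called with all libraries, but was called higher without colon libraries 1 and 2 (1.82, adjusted p = 0.0139) and lower without colon libraries 3 and 4 (-6.38, 0.000319). In the fit of all tissue libraries control colon had 139, 0, 0.237 and 0 CPM of Hoxb13, high in 1 of 4 libraries. The labels do not give the place along the colon, and its part in the results was not tested.

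**Figure D4:**
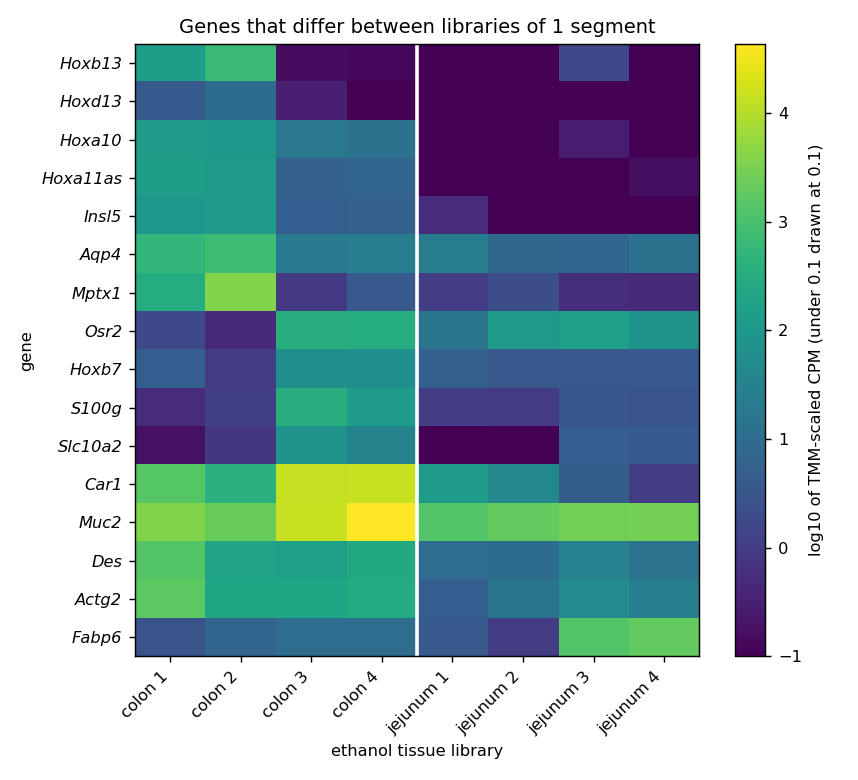
Log10 CPM (colour; values under 0.1 drawn at 0.1) of 16 genes chosen after their values were seen, in the 8 ethanol tissue libraries, colon to the left of the white line and jejunum to the right. Hoxb13, Hoxd13, Insl5, Aqp4 and Mptx1 are bright in colon libraries 1 and 2, Osr2, S100g, Slc10a2, Car1 and Muc2 in colon libraries 3 and 4, Des and Actg2 in colon library 1, and Fabp6 in jejunum libraries 3 and 4.

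Stem cell and Wnt genes of the crypt leaned to colon, with 12 of 23 tested members higher and 3 lower (median 1.17), or 1 lower without colon library 3. Lgr5, the receptor that marks stem cells, did not pass the test: 23.1, 29.1, 15.6 and 10.1 CPM in colon, against 13.3, 13.4, 17 and 31.3 CPM in jejunum (log2 fold change 0.03 ± 0.39, adjusted p = 0.954). Olfm4, a stem cell marker of the small intestine, had no count in colon, against 7.98, 7.67, 3.24 and 3.62 CPM in jejunum, at least 49-fold lower. Sox9, a factor of crypt and Paneth cells, averaged 253 ± 66.7 CPM in colon and 93.7 ± 28.8 CPM in jejunum (log2 fold change 1.43 ± 0.28, adjusted p = 0.0015). Prom1, a progenitor surface protein, averaged 439 ± 261 CPM in colon and 122 ± 34.9 CPM in jejunum. Proliferation genes did not share this lean: of 26 tested, 4 were higher, 1 was lower and 21 were not called. Over all genes 24.4% were higher. The summed proliferation list had a median of 1141 CPM in colon and 1131 CPM in jejunum. Cdk1, the mitotic kinase, had 46.6, 64.3, 43.7 and 40.2 CPM in colon, against 7.45, 14.7, 8.92 and 15.3 CPM in jejunum (log2 fold change 2.04 ± 0.29, adjusted p = 0.00018), whereas Birc5, survivin, which acts in the same phase of the cycle, had 93.3, 94.8, 54 and 35 CPM in colon, against 297, 162, 124 and 149 CPM in jejunum (log2 fold change -1.40 ± 0.36, adjusted p = 0.00699). The count of 4 fell to 2 without colon library 2 or without jejunum library 2, and rose to 7 without colon libraries 3 and 4. Without colon libraries 1 and 2, 2 were higher and 3 lower.

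Claudins, the strand proteins that set the permeability of tight junctions, gave 3 of 10 tested members higher in colon and 2 lower, so 5 were not called; over all genes 24.4% were higher and 22.1% lower. Cldn2, which forms a cation and water pore, had 104, 236, 512 and 329 CPM in colon, against 93.1, 60.1, 38.1 and 93.3 CPM in jejunum (log2 fold change 2.06 ± 0.45, adjusted p = 0.0032). Cldn15, the sodium pore of the small intestine, had 375, 286, 460 and 291 CPM in colon, against 4863, 3038, 2547 and 2599.6 CPM in jejunum (log2 fold change -3.21 ± 0.32, adjusted p = 1.22e-05). Cldn7, a claudin of the lateral membrane, had 362, 412, 407 and 448 CPM in colon, against 2142, 1408, 1669.7 and 2785 CPM in jejunum (log2 fold change -2.30 ± 0.28, adjusted p = 5.13e-05). For these 3 claudins the segments did not overlap. Cldn8, a barrier claudin of the colon, had 54.9, 89.3, 40.9 and 31.5 CPM in colon, against 1.6, 0, 0.27 and 3.46 CPM in jejunum (log2 fold change 5.13 ± 0.68, adjusted p = 0.000163). It was at or near 0 in jejunum. Cldn3, a sealing claudin, averaged 317 ± 174 CPM in colon and 113 ± 44.9 CPM in jejunum (log2 fold change 1.48 ± 0.43, adjusted p = 0.014); without colon libraries 3 and 4 its fold change was 0.62 (adjusted p = 0.204). Among the junction scaffolds and adhesion proteins, 9 of 29 tested members were lower and 4 higher. Ocln, occludin, averaged 43.7 ± 8.54 CPM in colon and 126 ± 70.8 CPM in jejunum (log2 fold change -1.53 ± 0.34, adjusted p = 0.00329), and was not called without jejunum libraries 3 and 4 (-0.78, adjusted p = 0.0531). Cdh17, the liver-intestine cadherin, averaged 435 ± 55.2 CPM in colon and 2159 ± 189 CPM in jejunum (log2 fold change -2.31 ± 0.24, adjusted p = 1.74e-05). Epcam, an adhesion protein of all intestinal epithelium, averaged 1162 ± 177 CPM in colon and 3132 ± 497 CPM in jejunum (log2 fold change -1.43 ± 0.26, adjusted p = 0.000841). Every colon library lay below every jejunum library for these 3 adhesion genes. Cdh1, E-cadherin, averaged 949 ± 225 CPM in colon and 1422 ± 231 CPM in jejunum and was not called (log2 fold change -0.58 ± 0.26, adjusted p = 0.0891), nor was the scaffold Tjp1 (log2 fold change -0.49 ± 0.25, adjusted p = 0.121), which was called without colon library 1 (-0.68, adjusted p = 0.0469) or colon libraries 1 and 2 (-0.86, 0.0296).

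Genes that handle ethanol and aldehydes gave 7 of 20 tested members higher and 6 lower. Over all genes 24.4% were higher and 22.1% lower. Adh6a, an alcohol dehydrogenase, had 0.526, 0.319, 0.308 and 0.393 CPM in colon, against 486, 456, 351 and 391 CPM in jejunum (log2 fold change -10.01 ± 0.33, adjusted p = 4.91e-09). Adh5, which also clears formaldehyde, had 67.2, 72, 107 and 109 CPM in colon, against 9.04, 27.8, 16.5 and 19.4 CPM in jejunum (log2 fold change 2.27 ± 0.32, adjusted p = 0.000159). Aldh2, the mitochondrial enzyme that oxidizes acetaldehyde, had 311, 747, 332 and 484 CPM in colon, against 18.6, 94.6, 73.5 and 87.4 CPM in jejunum (log2 fold change 2.76 ± 0.46, adjusted p = 0.000618). For all 3 genes the groups did not overlap. Adh1, the classical ethanol-oxidizing enzyme, had 299, 1356, 153 and 147 CPM in colon, against 110.1, 275, 130.3 and 76.5 CPM in jejunum and was not called (log2 fold change 1.72 ± 0.74, adjusted p = 0.084); colon library 2 stood far above the others. It was called without colon library 3 (2.02, adjusted p = 0.0466) or colon libraries 3 and 4 (2.39, 0.00521). Aldh1a1, a retinaldehyde dehydrogenase, was not called either (log2 fold change -0.66 ± 0.62, adjusted p = 0.414) but was lower without colon libraries 3 and 4 (-2.30, adjusted p = 0.00273). Aldh1a3, its relative, averaged 8.97 ± 5.5 CPM in colon and 74.7 ± 29 CPM in jejunum.

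Of 47 tested foreign-compound enzymes, 22 were lower and 13 higher in colon. Over all genes 22.1% were lower and 24.4% higher, so the count of 13 is near its share. Without colon libraries 3 and 4, 8 were higher. Cyp3a11, a cytochrome P450 of the absorptive epithelium, had 0.701, 0, 1.39 and 1.05 CPM in colon, against 209, 895, 512 and 344 CPM in jejunum (log2 fold change -9.22 ± 0.73, adjusted p = 4.71e-06). Sult1a1, a sulfotransferase for phenols, had 245, 376, 323 and 269.8 CPM in colon, against 0.532, 2.56, 3.24 and 2.47 CPM in jejunum (log2 fold change 6.99 ± 0.36, adjusted p = 5.82e-08). These 2 enzymes separated the segments in opposite directions. Of 21 tested retinoid genes, 8 were lower and 3 higher. The number higher was 5 without colon library 2 and 6 without colon libraries 1 and 2. It was 0 without colon libraries 3 and 4, and 1 with a stricter filter on low counts. Rbp2, the retinol carrier of enterocytes, fell to 2.63, 3.19, 8.33 and 2.62 CPM in colon, against 240.4, 738, 474 and 232 CPM in jejunum (log2 fold change -6.64 ± 0.57, adjusted p = 5.86e-06). Of 30 tested genes of fatty acid oxidation and ketogenesis, 9 were higher and 6 lower, near the shares over all genes (24.4% and 22.1%). Without colon libraries 3 and 4, 5 were higher and 11 lower. Cpt1a, which admits fatty acids to mitochondria, averaged 191 ± 75.5 CPM in colon and 54.5 ± 17.6 CPM in jejunum (log2 fold change 1.80 ± 0.32, adjusted p = 0.00079).

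Genes of antigen presentation and of T cells and intraepithelial lymphocytes were mostly lower in colon. Of 9 tested genes of MHC class II presentation, 6 were lower and 1 was higher (median -3.37). Cd74, the invariant chain, had 52.8, 120.1, 70.2 and 127 CPM in colon, against 1574, 1404, 2012 and 3319 CPM in jejunum (log2 fold change -4.49 ± 0.41, adjusted p = 6.15e-06). H2-Ab1, a class II chain, had 47.5, 104, 85 and 261 CPM in colon, against 897, 1416, 2314 and 1869 CPM in jejunum (log2 fold change -3.70 ± 0.52, adjusted p = 0.000185). Both were low in every colon library. The member higher in colon was Ctss, the protease that trims the invariant chain, at 321 ± 108 CPM in colon and 128 ± 49.5 CPM in jejunum. It was not called without colon libraries 3 and 4 (0.84, adjusted p = 0.0969). Interferon-stimulated genes gave 11 of 22 tested members lower and none higher (median -1.41). T cell and intraepithelial lymphocyte genes gave 11 of 16 tested members lower and none higher (median -2.63). Gzma, a granzyme of cytotoxic cells, had 0, 0.159, 2.78 and 6.81 CPM in colon, against 28.7, 77, 75.7 and 112 CPM in jejunum (log2 fold change -4.85 ± 0.93, adjusted p = 0.00224). Cd3g, a chain of the T cell receptor complex, had 0.351, 1.11, 0.771 and 1.83 CPM in colon, against 8.51, 7.99, 5.95 and 10.5 CPM in jejunum (log2 fold change -2.96 ± 0.52, adjusted p = 0.000685). For both, the highest colon library lay below the lowest jejunum library. Without jejunum libraries 3 and 4, 6 members were called lower, and without colon libraries 3 and 4, where more members passed the filter on low counts, 17. Of 9 tested B and plasma cell genes, only Mzb1, a chaperone of antibody-secreting cells, was called: 2.28, 7.17, 7.1 and 14.1 CPM in colon, against 89.4, 58.5, 43.2 and 55.6 CPM in jejunum (log2 fold change -2.98 ± 0.45, adjusted p = 0.000248). Without colon library 2, 3 were lower, without colon library 4, 2 were lower, and without colon library 1, 1 was higher. Macrophage genes had 3 of 13 tested members lower and 1 higher, or 2 higher without jejunum library 1, 2 or 3. The count of 3 is near the share lower over all genes (22.1%). Csf1r, the receptor that keeps macrophages alive, was not called (log2 fold change 0.91 ± 0.45, adjusted p = 0.119).

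Genes of the muscle coat and its nerves were higher in colon. Of 20 tested smooth muscle genes, 16 were higher and none lower (median 2.39), but 10 were higher without jejunum library 1 and 1 was lower without colon library 4. The summed list had 35000.2, 7146, 7584 and 9896 CPM in colon, against 1869, 1758, 5673 and 3215 CPM in jejunum; colon library 1 stood far above the rest, and jejunum library 3 highest in its group. Des, the muscle intermediate filament, had 1371, 198, 154 and 271 CPM in colon, against 10.1, 9.9, 31.4 and 13.7 CPM in jejunum (log2 fold change 4.92 ± 0.83, adjusted p = 0.00113). Actg2, the enteric actin, had 1655, 210.4, 207 and 300.2 CPM in colon, against 4.79, 14.4, 51.4 and 27.5 CPM in jejunum (log2 fold change 4.57 ± 0.93, adjusted p = 0.0031). Both were highest in colon library 1, and all colon libraries lay above jejunum. Acta2, vascular and visceral actin, had 3011, 781, 944 and 1603 CPM in colon, against 215, 109, 1003 and 525 CPM in jejunum and was not called (log2 fold change 1.77 ± 0.67, adjusted p = 0.0518), but was without colon library 2 (adjusted p = 0.0349), jejunum library 3 (0.00991), colon libraries 3 and 4 (0.0382) or jejunum libraries 3 and 4 (0.00671), and with DESeq2 (0.00538) and limma-voom (0.0174). Enteric neuron and glia genes gave 13 of 21 tested members higher and none lower; the count was 7 without colon library 1 and 8 without colon library 3. Vip, a relaxing transmitter, averaged 52.9 ± 38.4 CPM in colon and 9.67 ± 5.15 CPM in jejunum, with overlapping ranges. Fibroblast and matrix genes had 11 of 22 tested members higher and 3 lower, or 1 lower without jejunum library 3 or 4; Dcn, decorin, had 586, 139, 161 and 240.3 CPM in colon, against 7.98, 19.2, 36.5 and 41 CPM in jejunum (log2 fold change 3.40 ± 0.59, adjusted p = 0.00122). Summed over their lists, enteric neuron and glia genes had 920.5, 401, 454 and 423 CPM in colon, against 212, 112, 332 and 207 CPM in jejunum. The part of this non-epithelial RNA in the other results was not tested.

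Markers of tissue outside the gut wall were looked for in each library. On the pancreas and liver list, Cpa1, Cela2a and Cela3b had no count in any of the 8 libraries, and only Cela1 and Ttr were tested and called higher, with summed levels of 70.7, 305, 34.9 and 43.1 CPM in colon, against 2.66, 4.79, 10.5 and 8.4 CPM in jejunum. Ttr, with 13 counts in jejunum, could pass the filter on low counts only through colon, so its call says little beyond the levels. The call of Ttr (log2 fold change 5.27) was lost without colon libraries 1 and 2 (2.06, adjusted p = 0.102), without jejunum libraries 3 and 4 (6.25, 0.082), with limma-voom (4.45, 0.0845) and with no filter (5.27, 0.0527). Stratified squamous genes summed to 11.1 to 17 CPM in colon and 3.95 to 18.6 CPM in jejunum, and the defining adipocyte gene Adipoq had 1.23, 0.319, 3.7 and 1.05 CPM in colon, against 0, 3.51, 3.51 and 4.77 CPM in jejunum. Ribosomal protein genes had 20 of 31 tested members higher and 1 lower (0 without colon library 1), with single fold changes from -0.80 to 5.24 and summed levels of 12842, 19242, 12176 and 11821 CPM in colon, against 12512, 10082, 9198 and 11905 CPM in jejunum; many of these genes have processed copies elsewhere in the genome, so their single values are uncertain.

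Whether ethanol changed the difference between the segments was tested as the segment difference in ethanol tissue minus that in control tissue, in 1 fit of 15 tissue libraries. No gene was called: 0 of 13300 (0%), with a smallest adjusted p of 0.389. An unadjusted p under 0.05 was reached by 837 genes, 172 with a positive and 665 with a negative difference; a limma-voom fit also called 0 and had 650 such genes, while DESeq2 called 2. The median difference over all genes was -0.15 with TMM factors and -0.03 with RLE factors, so negative values near that size depend on the scaling. The control groups were thinner than the ethanol groups, since Rn45s took 76.3 to 84.3% of control jejunum and left 684906 to 1510057 counts, and 406 of the tested genes had no count in control jejunum, against 72 in ethanol jejunum. The contrasts of ethanol and of control tissue share no library. In that fit 6458 genes were called between the segments in ethanol tissue and 5647 in control tissue, 4578 of them in both with the same direction (70.9% of the ethanol calls and 81.1% of the control calls) and 1 with opposite directions. Pearson's r between the fold changes was 0.85 across genes, which are not independent replicates.

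**Figure D5:**
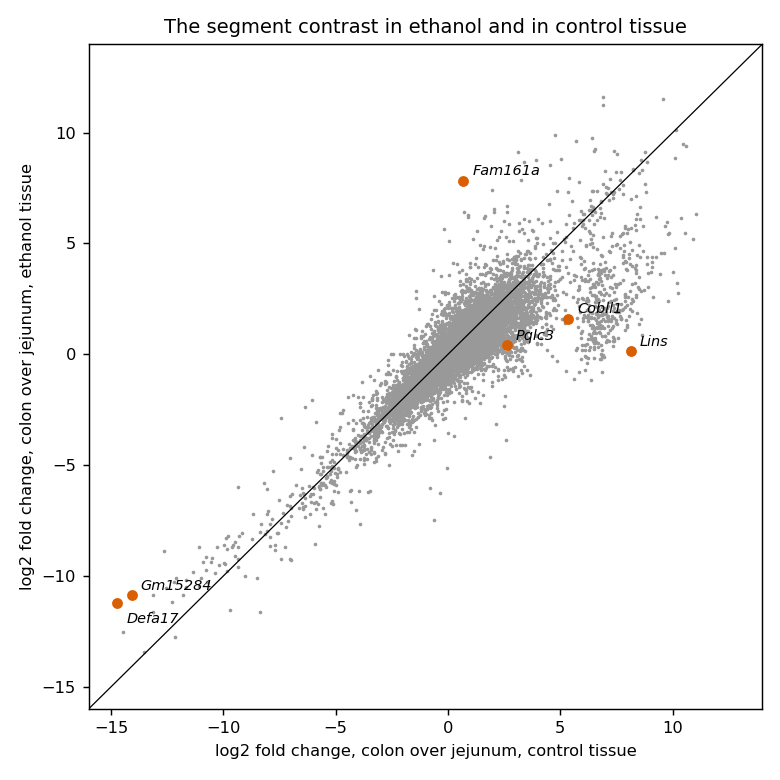
Log2 fold change of colon over jejunum in ethanol tissue (vertical axis) against that in control tissue (horizontal axis), 1 point per gene for 13300 genes in the fit of 15 libraries; the line marks equal values. The 6 named genes have the smallest p-values for the difference in each direction, and none was called; Lins, at 0.14 in ethanol and 8.14 in control tissue, is among the 406 genes with no count in control jejunum.

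For 5 genes described above, chosen after their values were seen, the contrasts under both treatments were set side by side. The log2 fold change of colon over jejunum for Lct was -9.82 ± 0.80 in ethanol and -11.38 ± 0.87 in control tissue (difference 1.56 ± 0.90, adjusted p = 0.837). For Guca2b it was -5.28 ± 0.37 in ethanol and -5.22 ± 0.37 in control tissue (difference -0.06 ± 0.45, adjusted p = 0.999). Cldn2 had 2.03 ± 0.45 in ethanol and 1.04 ± 0.50 in control tissue (difference 0.99 ± 0.65, adjusted p = 0.861), and Cldn8 had 5.10 ± 0.67 in ethanol and 2.91 ± 0.78 in control tissue (difference 2.20 ± 1.09, adjusted p = 0.808). Adh6a had -10.02 ± 0.64 in ethanol and -9.05 ± 0.63 in control tissue (difference -0.98 ± 0.92, adjusted p = 0.925). None of these differences exceeded its error enough to be called, and a p that misses the threshold does not show equal contrasts. The smallest p-values with a negative difference belonged to Pqlc3, Lins and Cobll1. Pqlc3, a membrane protein with PQ-loop repeats, had 24.6, 28.7, 23.1 and 24.4 CPM in ethanol colon and 17.2, 20.4, 15.9 and 21.2 CPM in ethanol jejunum, against 29.3, 27.8, 23.7 and 34.7 CPM in control colon and 4.49, 4.6 and 5 CPM in control jejunum (difference -2.18 ± 0.40, unadjusted p = 3.12e-05, adjusted p = 0.389). Control jejunum stood below the other three groups. The smallest p-values with a positive difference belonged to Gm15284, Fam161a and Defa17, of which Gm15284, an alpha-defensin by its RefSeq synonym, had 3.72, 0.637, 1.4 and 0.798 CPM in ethanol colon and 3725, 3181, 2009.9 and 3248 CPM in ethanol jejunum, against 0.359, 0.802, 0.237 and 0.347 CPM in control colon and 10376, 5432 and 7263 CPM in control jejunum (difference 3.22 ± 0.71, unadjusted p = 0.000237, adjusted p = 0.389). Control jejunum stood above ethanol jejunum in each library, and the levels in colon were near 0. DESeq2 called Gm15284 (difference 3.40, adjusted p = 0.0452) and Fam161a (6.30, 0.0452). Without control jejunum library 3, 1 gene was called, Cd74 (-4.36, adjusted p = 0.0137; difference -1.71 ± 1.08, unadjusted p = 0.138, adjusted p = 0.856 with all libraries), which had 53.3, 120.1, 70.9 and 129 CPM in ethanol colon and 1642, 1448, 2044 and 3386 CPM in ethanol jejunum, against 115, 73, 121 and 111 CPM in control colon and 151, 81.2 and 1964 CPM in control jejunum. Control jejunum library 3 was at the level of ethanol jejunum and the other two were near colon.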

How the data were processed

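The authors deposited read counts per gene symbol for 27 libraries (23420 rows) and a normalized table; per the submitters' processing notes, Trimmomatic 0.32, BWA, HTSeq, limma, edgeR and genome build mm10 were used, with settings and strand not given in the sources used here. The normalized table, deposited by the authors as a log-like score whose method is not stated, served for 1 alternative. Only the 8 ethanol tissue libraries entered the main fit. No 2 replicates of a tissue group agreed within sampling noise.

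The DESeq2 (1.42.0) and limma (3.58.1) fits were alternatives. Rn45s was removed, edgeR 4.0.16 made TMM factors, filterByExpr kept 12679 genes, and the quasi-likelihood test gave p-values adjusted by Benjamini-Hochberg over all of them, with calls at adjusted p under 0.05. The ± beside a fold change is its standard error, and beside a mean the SD. Scripts were tested on simulated data. The intervals and floors reflect counting error alone. The difference between treatments was tested in 1 fit of 15 tissue libraries. Alternatives were other factors and filters, DESeq2, limma-voom, a donor block and leaving out libraries.

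Members and gene lists were chosen with earlier results of these data known. Named genes were the extremes given in the text and, per list, up to 4 called members in each direction by level plus landmarks; 17 list names were matched through RefSeq synonyms, and list names with no row were not analysed here. Sequences are RefSeq's. Antisense and overlapping genes cannot be told apart where strand was not used. Values of some single list members are not reported here.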

Additional observations from a re-analysis of the deposited data

Results flagged for a closer look

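In 325 groups of 4 libraries with at least 20 counts, the highest or lowest library was compared with the rest by Dixon's criterion (gap to the nearest over the range, at the 95% level). Independent groups of normal values would pass in about 1 of 20 cases, or 16 here. The groups are not independent, since some sums hold named genes, and some genes were chosen after their values were seen. The number 16 is therefore not a chance expectation for these groups, of which 33 passed. Of the 33 groups, 10 fell on colon library 1 and 10 on colon library 2. Values are CPM, set beside the range of the other three libraries of the group.

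Colon library 1 stood above the others for Actg2 (1655, others 207 to 300.2), Des (1371, others 154 to 271), Fabp1 (7.54, others 1.05 to 1.59) and Hoxa11 (17.7, others 3.86 to 5.89). It was also above them for Mttp (5.08, others 1.57 to 2.16), Retnlb (40, others 2.01 to 7.2), summed smooth muscle genes (35000.2, others 7146 to 9896) and summed enteric neuron and glia genes (920.5, others 401 to 454). It was below them for Gata6 (54.9, others 79.7 to 83.5) and summed surface defence genes (4303, others 6187 to 6498). Colon library 2 stood above the others for Adh1 (1356, others 147 to 299), Cela1 (197, others 29.9 to 54.2), Mgam (138, others 103 to 104) and Mptx1 (3706, others 0.925 to 311). It was also above them for Saa1 (989.8, others 256 to 363), Sycn (2157, others 66.2 to 380.3), Ttr (105, others 3.14 to 14.6) and summed pancreas and liver genes (305, others 34.9 to 70.7). It was also above them for summed ribosomal protein genes (19242, others 11821 to 12842). It was below them for Fabp2 (149.7, others 531 to 598). Colon library 3 stood above the others for Rbp2 (8.33, others 2.62 to 3.19) and Slc4a4 (177, others 108 to 117). Colon library 4 stood above the others for Csf1r (22.1, others 6.53 to 7.71) and summed macrophage genes (264, others 119.6 to 137). Jejunum library 1 stood below the others for Cldn3 (46.3, others 131 to 141), Ctss (54.8, others 145 to 161), summed junction genes (10702, others 14780.4 to 14921) and summed fatty acid oxidation genes (4408, others 5469.7 to 5663). Jejunum library 2 stood above the others for Mptx2 (25.2, others 12.7 to 13.3). Jejunum library 3 stood below the others for Gm10104 (435, others 789 to 827) and Prom1 (69.5, others 134 to 142). Jejunum library 4 stood above the others for Agr2 (633, others 136 to 198) and Fgf15 (31.4, others 0.532 to 4.05).

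The summed smooth muscle, enteric neuron and fibroblast lists, in which most called members were higher in colon, are highest in colon library 1, and their part in the other results was not tested. No difference between treatments was called, so none is listed here.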

How the results depend on the processing

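The number of genes called between colon and jejunum stayed between 4683 and 6458 under the alternatives run on the counts: 5996 with RLE and 6057 with upper-quartile factors, 6261 with no filter and 4683 with a stricter one, 5858 with Rn45s kept, 6377 with DESeq2, 5954 with limma-voom and 6458 with all 15 tissue libraries. It was 5256 to 5755 when each library was left out in turn. With limma on the deposited normalized table it was 3355, of 8849 genes that have a value in all 8 libraries of that table. Many lists had fewer called members there, and members without a value could not be called. Lower in colon were 5 brush border enzymes (18 in the main fit), 1 Paneth gene (13) and 0 T cell and intraepithelial lymphocyte genes (11). Higher were 2 enteric neuron and glia genes (13). Of the 130 named genes tested in the main fit, 51 had the same outcome there, 8 lost their call and 1, Acta2, gained one. A further 4, called in neither fit, changed sign, and the rest could not be compared. The call was lost for Epcam (score difference -0.07, adjusted p = 0.184), Muc13 (-0.16, 0.0549), Zg16 (-0.31, 0.155), Cck (-2.70, 0.0821), Birc5 (-0.27, 0.102), Aldh1a3 (-2.39, 0.0544), Gucy2c (-0.04, 0.532) and Aqp4 (1.05, 0.0676). No gene called under any of these alternatives and in the main analysis changed direction. The difference between treatments gave 0 calls except with DESeq2 (2) and without control jejunum library 3 (1); leaving out single libraries gave 0 to 1. The Rn45s share was 31.9 to 43.3 percentage points lower in colon when single libraries were left out (-43.3 to -31.9).

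Among the named genes, the fold change turned for Slc26a3 (-1.01 without colon libraries 1 and 2), S100g (-1.41), Osr2 (-6.38) and Chga (-1.58) without colon libraries 3 and 4, and for Fabp6 (1.79) without jejunum libraries 3 and 4. Without jejunum libraries 3 and 4 the calls of Mptx1 (9.15, adjusted p = 0.132), Muc2 (3.29, 0.0655), S100g (6.87, 0.148) and Gucy2c (-0.87, 0.0901) were also lost. Without colon libraries 1 and 2, so was that of Gucy2c (-0.51, 0.162). With limma-voom, the calls of Mptx1 (5.50, 0.402), S100g (2.83, 0.456), Fabp6 (-3.51, 0.275) and Aqp4 (3.47, 0.0613) were lost. The lower bound for Hoxd13 was 17.3-fold, or 6.84-fold without colon library 2. These libraries were chosen after seeing the data, and the cause was not tested.

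The donor numbers recur in both segments but also under both treatments, so the main fit did not read them as pairs. Same-numbered libraries correlated at 0.00, 0.09, -0.00 and 0.11 in their deviations from the group means. Of 4 colon libraries, 1 correlated best with its own number. With 4 libraries per segment, which also differ among themselves, these correlations cannot decide whether 1 mouse gave both segments. With the donor number as a block, 5737 genes were called (3006 higher and 2731 lower in colon) and the difference between treatments gave 0. Under the block, Car1 (7.51, adjusted p = 0.1), Aqp4 (3.35, 0.0681) and Fabp6 (-4.16, 0.278) lost their call, and Adh1 (1.23, 0.0123), Slc10a2 (3.49, 0.000353) and Acta2 (2.07, 0.0321) gained one. Depth limits mainly control jejunum, with 684906 to 1510057 counts outside Rn45s.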
